A study of Mus musculus with 2 samples.

Results

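Genes that mark basophils, mast cells and eosinophils were followed in RNA-seq of mouse haematopoietic stem and progenitor cells, 10 in all: Prss34, Mcpt8, Cpa3, Fcer1a, Ms4a2, Hdc, Prg2, Epx, Ear1 and Ear2. They form a list of names, picked for the cell types they mark with earlier results of these data known, and all 10 were found among the 22020 gene symbols of the table, each with 1 RefSeq transcript. The sorted fraction was LSK (Lin-Ckit+Sca1+), which lacks lineage markers, carries c-Kit and Sca-1 and holds the stem cells and earliest multipotent progenitors of the bone marrow. It came from C57BL/6 mice aged 8 weeks, and 1 library was made per genotype. By its genotype label, the p53 KO library came from mice with a knockout of the tumour suppressor gene Trp53. The Utx/p53 DKO library came from mice with that knockout as well, so neither genotype label names intact p53. The titles call the libraries WT-LSK (p53 KO-LSK) and KO-LSK (Utx/p53 DKO-LSK), so WT in a title stands for the p53 KO library. The DKO label adds a knockout of Utx (Kdm6a), a demethylase of lysine 27 of histone H3. The labels do not say how the alleles were deleted, which sex the mice had or how many mice were pooled. The values below therefore describe 2 libraries, no difference has a replicate check, and no test was made.

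Basophils and mast cells carry the high-affinity receptor for IgE and store histamine, proteases and proteoglycan in granules, which they release when antigen bridges the bound IgE. Eosinophils store strongly basic proteins, a peroxidase and ribonucleases. All of these cells arise from marrow progenitors under the influence of GATA and C/EBP factors and the cytokines IL-3, IL-5 and stem cell factor, and low transcription of their genes is known in early progenitors before any mature cell is formed.

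Levels are given as RPKM, read counts scaled to transcript length and library size, p53 KO first, with the whole reads behind them. The libraries had 17088105 and 19926294 reads. Differences are DKO minus p53 KO on the log2(RPKM + 1) scale, which understates the change of low genes, and a gene counts as higher or lower from 2-fold on. Genes averaging 1 RPKM or more over the libraries are called measured genes. Ratios of RPKM carry exact (Clopper-Pearson) 95% intervals, which cover counting error only. In bulk RNA, fewer cells of a type and less RNA per cell cannot be told apart. Kdm6a, the gene that separates the genotypes, was at 5.32 and 1.26 RPKM (4.23-fold lower, 95% interval 3.48 to 5.17), and Trp53 was at 19.4 RPKM (587 reads) and 12.9 RPKM (456 reads). Trp53 was thus read in both libraries, and Kdm6a still had 132 reads in the library labelled DKO. Values over whole transcripts do not show whether the deleted parts are missing, so p53 KO and DKO stand here for the labels. Of the gate's own genes, Kit was at 64.2 and 16 RPKM and Ly6a, which encodes Sca-1, at 255 and 281 RPKM.

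Of the 10 genes, 7 were at least 2-fold lower in the DKO library, 0 were at least 2-fold higher and 3 lay within 2-fold. Among all 22020 genes, 7.82% were at least 2-fold lower and 3.57% at least 2-fold higher. Among the 11356 measured genes these shares were 13.5% and 6.6%. The lower genes were Prss34, Ear1, Fcer1a, Hdc, Ear2, Cpa3 and Prg2, and those within 2-fold were Mcpt8, Ms4a2 and Epx. The median log2 difference of the 10, taken without the filter, was -1.81. It was -0.11 over all 22020 genes and -0.24 over the measured genes. Of the 10, 8 were measured genes, but 5 of these 8 (Prss34, Fcer1a, Hdc, Ear1 and Ear2) passed through the p53 KO library alone. Such genes had to differ, so the counts here are over all 10. Only Mcpt8, Cpa3 and Prg2 were at 1 RPKM or more in both libraries.

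**Figure D1:**
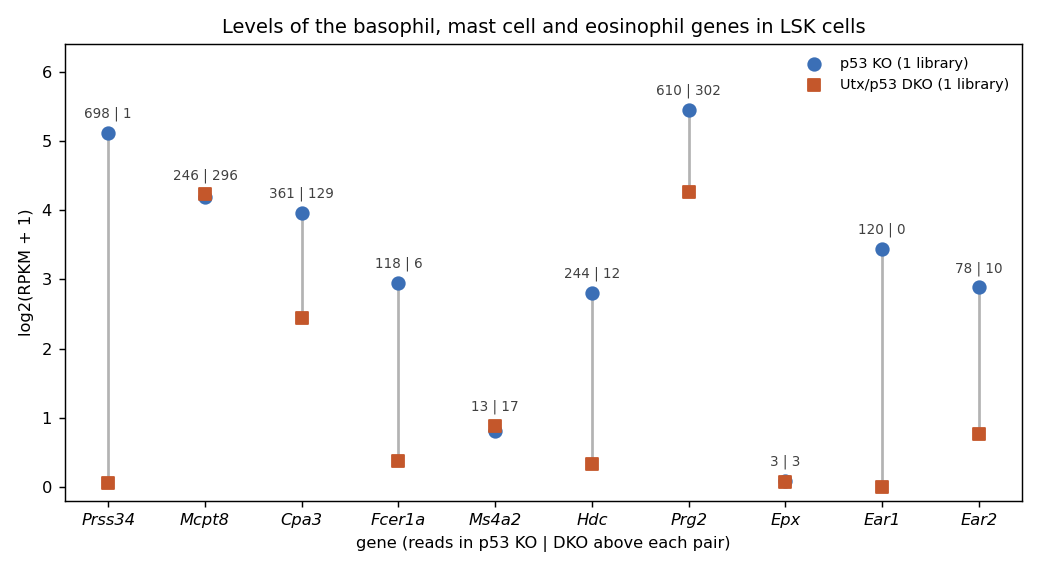
Levels of the 10 genes as log2(RPKM + 1) in the p53 KO library (circles) and the Utx/p53 DKO library (squares), 1 library each, with the reads of both printed above each pair. The symbols nearly coincide for Mcpt8, Ms4a2 and Epx, and the square lies lower for the other 7 genes.

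Among the granule proteases of basophils and mast cells, the 3 genes behaved differently. Prss34, which encodes the basophil tryptase mMCP-11, was at 33.6 RPKM (698 reads) in the p53 KO library and at 0.0413 RPKM (1 read) in the DKO library. It was among the more abundant transcripts of the p53 KO cells, above 80.8% of the measured genes, and close to absent from the DKO library. The ratio was 0.00123 (95% interval 3.1e-05 to 0.00687). The log2 difference was -5.05, a size set mainly by the p53 KO level, since the DKO level was near 0. Mcpt8, which encodes the basophil protease mMCP-8, was at 17.2 RPKM (246 reads) and 17.7 RPKM (296 reads), a ratio of 1.03 (95% interval 0.868 to 1.23). Both proteases are used as markers of the same mature cell, yet the first nearly vanished from the DKO library. The level of the second was within counting error of equal on the deposited scale, while the authors' gfold constants gave it a ratio of 1.57. Prss34 had 1.96 times the RPKM of Mcpt8 in the p53 KO library and 0.00233 times in the DKO library, and this comparison within a library does not depend on how the libraries are scaled. Cpa3, the carboxypeptidase of mast cell and basophil granules, lay between them at 14.5 RPKM (361 reads) and 4.46 RPKM (129 reads). It was 3.26-fold lower (95% interval 2.66 to 4.02), and its interval overlapped neither that of Prss34 nor that of Mcpt8.

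The receptor for IgE showed the same kind of split between its subunits. Fcer1a encodes the alpha chain, which binds IgE, and Ms4a2 encodes the beta chain, which amplifies the signal. Fcer1a was at 6.73 RPKM (118 reads) and 0.293 RPKM (6 reads), a 22.9-fold lower level in the DKO cells (95% interval 10.2 to 63.8). Ms4a2 was low in both libraries, at 0.753 RPKM (13 reads) and 0.845 RPKM (17 reads), with a ratio of 1.12 (95% interval 0.513 to 2.51). That interval reaches from a ratio of 0.513 up to more than a doubling, so a moderate difference of Ms4a2 was not detectable at this depth, whereas one of the size seen for Fcer1a lay outside it. The alpha chain had 8.94 times the RPKM of the beta chain in the p53 KO library and 0.347 times in the DKO library. Fcer1g, the signalling gamma chain that many Fc receptors of myeloid cells share, was higher in the DKO library, at 81.7 and 256 RPKM.

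The promoters of these 5 genes are shown because Prss34, Cpa3 and Fcer1a were lower together while Mcpt8 and Ms4a2 were not. Each line is the 250 bases before the annotated start, 5′ to 3′ on the gene's strand, from RefSeq on GRCm38.p6, a later build than the mm9 of the deposited values. Capitals mark AGATAA or TGATAA on either strand, a core bound by GATA factors.
Prss34, chr17:25298144-25298393, plus strand: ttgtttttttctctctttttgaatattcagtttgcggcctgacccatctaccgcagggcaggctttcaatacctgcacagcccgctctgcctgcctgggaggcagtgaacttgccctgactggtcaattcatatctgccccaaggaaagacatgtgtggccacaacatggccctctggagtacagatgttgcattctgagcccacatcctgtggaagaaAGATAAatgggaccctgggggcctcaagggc
Cpa3, chr3:20242182-20242431, minus strand: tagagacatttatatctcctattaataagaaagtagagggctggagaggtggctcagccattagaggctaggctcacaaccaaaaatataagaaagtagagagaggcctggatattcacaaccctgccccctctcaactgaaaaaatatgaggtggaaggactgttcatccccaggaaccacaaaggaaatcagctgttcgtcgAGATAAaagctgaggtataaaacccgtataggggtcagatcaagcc
Fcer1a, chr1:173227230-173227479, minus strand: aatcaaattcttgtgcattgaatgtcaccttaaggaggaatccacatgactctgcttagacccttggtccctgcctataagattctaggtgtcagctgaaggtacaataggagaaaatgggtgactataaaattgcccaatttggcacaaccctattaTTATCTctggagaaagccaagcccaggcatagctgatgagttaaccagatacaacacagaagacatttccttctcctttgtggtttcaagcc
Ms4a2, chr19:11623720-11623969, minus strand: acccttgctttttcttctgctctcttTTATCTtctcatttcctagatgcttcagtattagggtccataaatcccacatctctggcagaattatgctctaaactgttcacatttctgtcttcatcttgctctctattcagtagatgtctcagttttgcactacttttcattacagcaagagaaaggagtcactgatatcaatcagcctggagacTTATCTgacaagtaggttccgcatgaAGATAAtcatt
Mcpt8, chr14:56085198-56085447, minus strand: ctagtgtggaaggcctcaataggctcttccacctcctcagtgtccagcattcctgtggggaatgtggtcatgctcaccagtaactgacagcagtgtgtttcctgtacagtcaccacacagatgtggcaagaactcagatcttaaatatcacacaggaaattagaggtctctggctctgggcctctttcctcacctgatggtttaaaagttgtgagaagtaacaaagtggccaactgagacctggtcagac

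The GATA letters occurred in 4 of the 9 promoters in the RefSeq table (Prg2 was not among them) and in 16.6% of all 32851 promoter windows of this length. In Prss34 they lay at positions -31 to -26 from the start, in Cpa3 at -46 to -41 and in Fcer1a, on the other strand, at -92 to -87. Ms4a2 held 3 copies, at -224 to -219, -37 to -32 and -11 to -6, although its level was close in both libraries, and Mcpt8 held none. Lower genes were found both with the letters (Prss34, Cpa3 and Fcer1a) and without them (Hdc, Ear1 and Ear2), and so were genes within 2-fold. Other letters searched on both strands were TGTGGT of RUNX factors (3 of 9 promoters, 14% of all), TTNNGNAA of C/EBP factors (3 of 9, 36.8% of all), and AGGAAGT or AGGAAAT of ETS factors (4 of 9, 13.2% of all). These are matches of letters in a short window and do not show binding.

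Hdc encodes histidine decarboxylase, the enzyme that makes histamine. Its level was 6 RPKM (244 reads) in the first library and 0.253 RPKM (12 reads) in the second, which is 23.7-fold lower (95% interval 13.3 to 46.5). The interval overlapped that of Fcer1a. Slc18a2, the transporter that loads histamine and other amines into vesicles, was also lower, at 26.2 and 9.67 RPKM. Hnmt, which inactivates histamine by methylation, was at 6.93 and 14.7 RPKM, just within 2-fold on the log2 scale used (0.99).

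The eosinophil granule genes ranged from abundant to almost undetected. Prg2, which encodes the major basic protein, had the highest level of the 10 genes in both libraries, at 42.6 RPKM (610 reads) and 18.1 RPKM (302 reads). The DKO level was 2.36-fold lower (95% interval 2.05 to 2.71), the smallest difference among the 7 lower genes. Prg3, its neighbour on chromosome 2 and a homologue with 62.3% identity over the coding sequence, was at 2.28 RPKM (37 reads) and 0 RPKM. Epx, the eosinophil peroxidase, had 3 reads in each library, at 0.0652 and 0.0559 RPKM, so its ratio of 0.858 has a 95% interval from 0.115 to 6.4 and no difference could be resolved. Prg2 exceeded Epx 653-fold in RPKM in the p53 KO library and 323-fold in the DKO library. The peroxidase, which accompanies the major basic protein in eosinophil granules, was thus near the limit of detection at the RNA level. Of the summed RPKM of the 10 genes, Prg2 made 30.9% in p53 KO and 42.6% in DKO cells, and Mcpt8 12.5% and 41.7%.

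**Figure D2:**
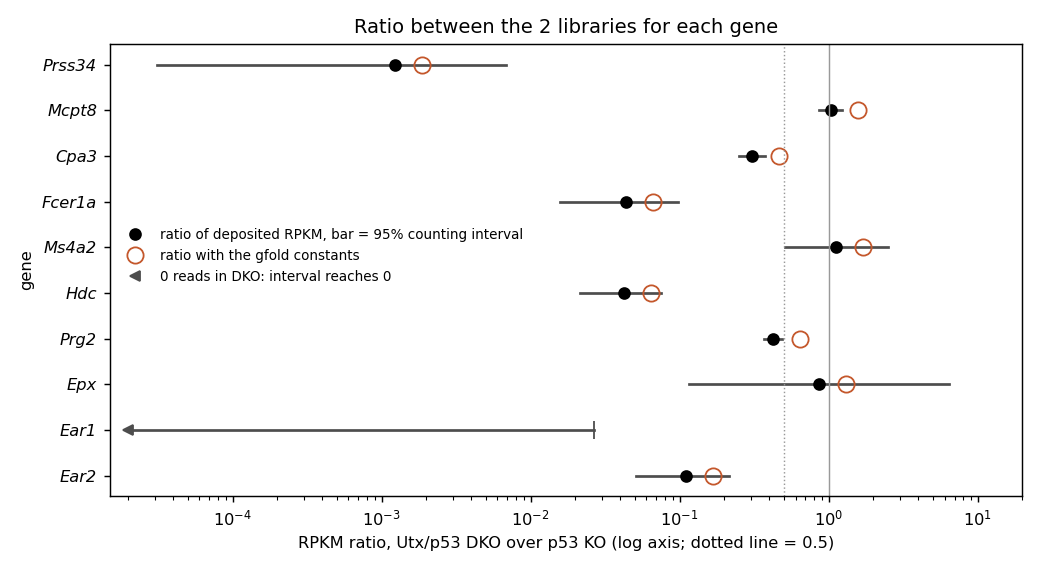
RPKM ratio of the Utx/p53 DKO over the p53 KO library on a log axis for each of the 10 genes (filled points, bars for the 95% counting interval) and the same ratio with the authors' gfold constants (open circles); the arrow marks Ear1, with 0 DKO reads. The intervals of Mcpt8, Ms4a2 and Epx include 1, and those of the other 7 genes lie below it.

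Ear1 and Ear2 encode eosinophil-associated ribonucleases, small secreted enzymes with antiviral and cytotoxic activity. Ear1 was read 120 times (9.86 RPKM) in p53 KO cells and 0 times in DKO cells. By the exact two-sided 95% interval its level was at least 37.4-fold lower. Taking 3 reads in the DKO library (0.211 RPKM) as a floor gave 46.6-fold, a value inside that interval and not a bound. Ear2 was at 6.38 RPKM (78 reads) and 0.701 RPKM (10 reads), 9.1-fold lower (95% interval 4.69 to 19.7). The values of both genes are uncertain, because the family consists of near-identical copies and the sources do not state how reads with several matches were counted. In the GENCODE annotation Ear1 also overlaps 4 other gene models, pseudogenes of the family among them, and Ear2 overlaps 1. The coding sequences of Ear1 and Ear2 were 95.1% identical, and that of Ear10 was 97% identical to Ear2. The similarity reaches into the promoters, shown here so that the copies can be compared.
Ear1, chr14:43819640-43819889, minus strand: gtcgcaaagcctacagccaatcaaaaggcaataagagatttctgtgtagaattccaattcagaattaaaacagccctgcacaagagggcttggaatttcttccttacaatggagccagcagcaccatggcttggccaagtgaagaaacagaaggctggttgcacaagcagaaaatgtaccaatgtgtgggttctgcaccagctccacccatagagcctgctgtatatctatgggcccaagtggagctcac
Ear2, chr14:44102404-44102653, plus strand: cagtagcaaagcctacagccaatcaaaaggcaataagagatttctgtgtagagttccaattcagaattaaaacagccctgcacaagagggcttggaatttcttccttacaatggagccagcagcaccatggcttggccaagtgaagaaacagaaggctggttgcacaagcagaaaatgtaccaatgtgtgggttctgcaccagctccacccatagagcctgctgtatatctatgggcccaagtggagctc

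Over 252 aligned positions these 2 promoters were identical at 246 (97.6%), with a longest identical run of 196 bases. Because reads may be split between copies, the family was also summed. Reads may instead be counted in full on more than 1 copy, as the equal reads of Ear3 and Ear12 (55 and 7 each) allow. The sum may then hold the same reads more than once. Over Ear1, Ear2, Ear3, Ear6, Ear7 and Ear10 the summed RPKM was 28.6 and 1.69, or 16.9-fold lower in DKO cells. The reads behind it were 306 and 20, which is 17.8-fold lower per library size (95% interval 11.4 to 29.6). That interval takes each read as counted once and is too narrow if reads were repeated. Ear12 had the same values as Ear3 (6.83 and 0.746 RPKM) and was left out of the sum. The family was not lower as a whole: Ear11, another ribonuclease gene of the family, was at 0.339 RPKM (4 reads) and 23.5 RPKM (323 reads). With Ear11 added, the 7 genes summed to 28.9 and 25.2 RPKM (310 and 343 reads), so the lower family sum holds for the other 6 genes and not with Ear11.

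Some other granule genes of these cells were lower and some were hardly read. Of 22 listed genes, 8 were measured, of which 5 were lower (Ear3, Ear12, Prg3, Ear7 and Ear6), 2 higher (Ear11 and Srgn) and 1, the heparan sulphate enzyme gene Ndst2, within 2-fold. Ear3 and Ear12 had identical values and may stand for the same reads, which leaves 4 lower of 7. All the lower ones counted as measured through the p53 KO library alone, and Ear11 through the DKO library alone, so these counts follow in part from the filter. Over all 22 listed genes the median difference was -0.09, and 7 of them were at 0 in both libraries. Srgn encodes serglycin, the proteoglycan core of granules in many blood cells including neutrophils, and was at 643 and 2194 RPKM. The proteases of mature connective tissue and mucosal mast cells were near the limit of detection. Mcpt1, Mcpt2, Mcpt9 and Cma2 had 0 reads in both libraries, Cma1 had 12 and 13 reads, and Mcpt4 had 3 and 0. The tryptase genes had few reads too, Tpsab1 with 8 and 1 and Tpsb2 with 9 and 4.

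Genes that carry the signal of the IgE receptor went both ways. Of 16 measured genes, 2 were higher, 3 lower and 11 within 2-fold, with a median of -0.19. Of all measured genes, 79.9% lay within 2-fold. Lower were the adaptor Lat (26 and 7.4 RPKM), the kinase Fyn (10.2 and 3.26) and the phospholipase Plcg1 (2.15 and 0.362), all of which T cells use too. Higher were Fcer1g and the kinase Prkcb (5.12 and 12.2 RPKM). The kinase Lyn, which is bound to the receptor at rest, was at 24.7 and 30 RPKM, a difference of 0.27. The sign of this group's median depended on the scaling, at -0.55 with equal totals and 0.39 with the authors' gfold constants.

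The measured cytokine receptor genes were divided in direction. Of 10 measured genes, 3 were higher and 3 lower. The higher ones were the receptor subunits for IL-3 and GM-CSF: Il3ra, the IL-3 binding chain, was at 3.82 and 11.3 RPKM, the shared signalling chain Csf2rb at 24.7 and 107, and the GM-CSF binding chain Csf2ra at 9.24 and 24.7. The lower ones were Kit, Il7r (20.8 and 4.35 RPKM) and Il4ra (11.2 and 3.62 RPKM). A further 7 listed receptor genes averaged under 1 RPKM, of which 6 had a lower value in the DKO library and 1 a higher one. Over all 17 listed receptor genes the median difference was -0.2, against 0.31 over the measured ones. The IL-5 receptor gene Il5ra had 85 and 32 reads, the IL-33 receptor gene Il1rl1 83 and 8, and the eotaxin receptor gene Ccr3 17 and 0. The complement receptor gene C3ar1 went the other way, with 24 and 100 reads. These 4 were named after their values were seen.

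Surface markers were similarly divided. Of 10 measured genes, 5 were higher and 2 lower. The lower ones were Siglec5, the table's symbol for the eosinophil lectin Siglec-F (2.39 and 0.0821 RPKM), and the chemokine receptor Ccr7 (7.97 and 0.61 RPKM). The higher ones included the low-affinity IgG receptors Fcgr3 (15.2 and 173 RPKM) and Fcgr2b (16.6 and 151 RPKM), the activating receptor Cd200r4 (1.03 and 10.7 RPKM) and Ms4a3, a gene of granulocyte-monocyte progenitors (51.8 and 212 RPKM). The listed markers averaging under 1 RPKM all had lower values in the DKO library, among them Mrgprb1 with 30 and 0 reads and Itga2 with 17 and 2. Over all 16 listed markers the median difference was -0.26, against 0.94 over the measured ones. Fcgr3 had the coding sequence nearest to Fcer1a among 233 genes compared, at 51.3% identity, so the alpha chains of the IgE and the IgG receptor moved in opposite directions between the libraries.

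The transcription factors known from these lineages also went both ways. Of 17 measured genes, 8 were higher and 2 lower, with a median of 0.74. Gata1, required for eosinophils and active in mast cells and basophils, was at 10.4 and 2.31 RPKM. Gata2, which acts upstream in basophil and mast cell progenitors, was at 16.7 and 8.62 RPKM, a log2 difference of -0.88 that stayed within 2-fold. Cebpa was at 2.35 and 15.1 RPKM and Cebpe, which late granulocytes of both the neutrophil and the eosinophil line need, at 5.01 and 25.4. Xbp1, needed by eosinophil progenitors for protein folding, was at 39.8 and 119 RPKM, Id2 at 20.2 and 54.1, and Id1 at 0.835 and 5.51. Mitf, the mast cell factor, was at 4.51 and 8.19 RPKM, within 2-fold.

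Enzymes of histamine and lipid mediators went both ways. Of 11 measured genes of this list, 5 were higher and 4 lower. Lower were the leukotriene C4 synthase gene Ltc4s (4.68 and 0.768 RPKM), the prostaglandin D synthase gene Hpgds (4.58 and 1.07 RPKM) and the thromboxane synthase gene Tbxas1 (21.2 and 4.9 RPKM), besides Slc18a2. Leukotriene C4 and prostaglandin D2 are known mast cell mediators. Higher were Lta4h, which makes leukotriene B4 (82.3 and 308 RPKM), the cyclooxygenase gene Ptgs1 (16.6 and 51.9), the prostaglandin E synthase gene Ptges (0.305 and 2.67), Alox5 (1.06 and 4.3) and Alox5ap (243 and 564). Of the listed genes averaging under 1 RPKM, Alox15 had 44 and 7 reads, Ptgs2 had 41 and 4, and Abp1 was at 0 RPKM in both libraries. Over all 14 listed genes the median difference was -0.28, against 0.99 over the measured ones. Of 7 measured effector cytokine genes, 2 were higher, Ccl9 (69.5 and 240 RPKM) and Ccl6 (13.8 and 38.4), and 2 lower, Ccl4 (47.2 and 6.08) and Osm (9.54 and 3.68). Il13 had 0 reads in both libraries, and Il4 was at 0.775 and 0.0831 RPKM.

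**Figure D3:**
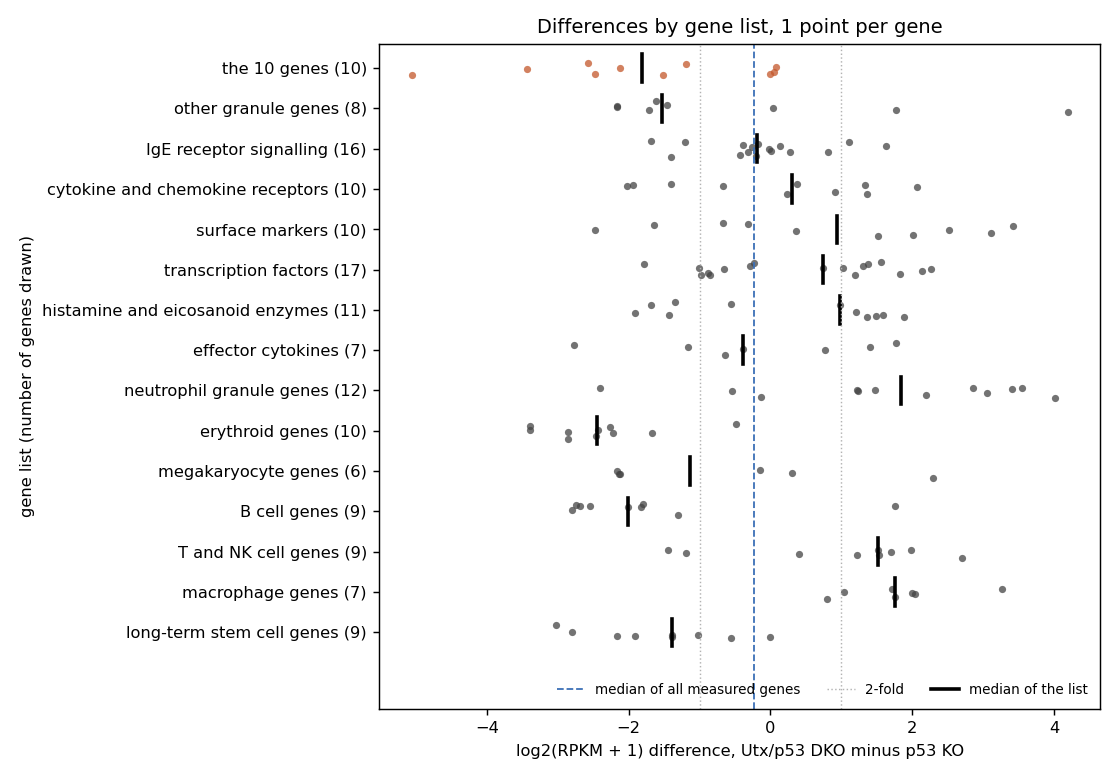
Log2(RPKM + 1) difference, Utx/p53 DKO minus p53 KO, for each gene of the lists (1 point per gene, number in brackets, measured genes except in the top row, which has all 10 genes), with list medians as black bars. The dashed line is the median of all measured genes (-0.24) and the dotted lines are 2-fold; the median of the 10 genes (-1.81) lies left of it, as do those of the erythroid (-2.45) and B cell (-2.01) genes, which are not ordered against it because the filter differs.

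Markers of other cells differed between the libraries too, and their part in the differences of the 10 genes was not tested. Of 10 measured erythroid genes 9 were lower and of 9 B cell genes 8 were lower, as were 7 of 9 long-term stem cell genes and 3 of 6 megakaryocyte genes. The erythroid count includes globin copies with nearly equal reads. Hba-a1 and Hba-a2 had 2774 and 2776 reads in p53 KO and 297 each in DKO. Hbb-b1 and Hbb-b2 had 3468 and 3458 in p53 KO and 548 and 546 in DKO. Each pair may stand for the same reads. Of 12 neutrophil granule genes 9 were higher, with a summed level of 4116 against 41021 RPKM, and 6 of 7 macrophage and 6 of 9 T and NK cell genes were higher. Summed levels went against the counts for the B cell genes (510 and 629 RPKM) and the T and NK cell genes (264 and 212 RPKM). The sums of the other lists named here went with their counts. In the same units the 10 genes summed to 138 and 42.4 RPKM. Of the defining markers of other cells named in these lists, only the erythropoietin receptor gene Epor was at 0 in the DKO library, and none was at 0 in the p53 KO library. Epor was near the limit of detection in the p53 KO library too, at 0.192 RPKM (6 reads).

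Several of the 10 genes lie beside relatives, so their neighbours in the annotated gene order were compared. Mcpt8 lies in the granzyme and mast cell protease cluster of chromosome 14, next to Ctsg, the neutrophil cathepsin G. Ctsg was at 108 and 1160 RPKM, while Mcpt8 differed by 0.04 and the other neighbours, Mcpt2, Mcpt9, Mcpt4, Gzme and Gzmd, had 4 reads or fewer in either library. Gzmb, the nearest to Mcpt8 by coding sequence among the 233 genes compared (59.5% identity), was at 3.55 and 28.6 RPKM. Epx lies near Mpo on chromosome 11, the nearest of those genes to it with 70% identity. Mpo, the neutrophil peroxidase, was at 876 and 6386 RPKM, against 3 reads of Epx in each library. Ms4a2 lies next to Ms4a3, which was higher as given above, and in the tryptase cluster of chromosome 17 the genes Prss28 and Prss29 beside Prss34 had 0 reads.

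Prg2 and Hdc both lie on chromosome 2, where levels as a whole were shifted down in the DKO library. The median log2 difference of the 868 measured genes of chromosome 2 was -0.63. Of these genes, 26.7% were at least 2-fold lower, against 13.5% of all measured genes. Among the 40 measured genes nearest to Prg2 (20 on each side, a window chosen after the first neighbours were seen) the median was -0.76 and 39 were below 0. Around Hdc it was -0.83 and 36 of 40 were below 0. Prg2 itself was at -1.19, and 16 of its 40 neighbours (40%) were at least 2-fold lower. Hdc was at -2.48, farther from its surroundings, of which 13 (32.5%) were at least 2-fold lower. For the other 8 genes the medians of the 40 nearest genes were between -0.34 and -0.05, close to the median of all genes. The part of the chromosome in the values of Prg2 and Hdc was not tested.

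**Figure D4:**
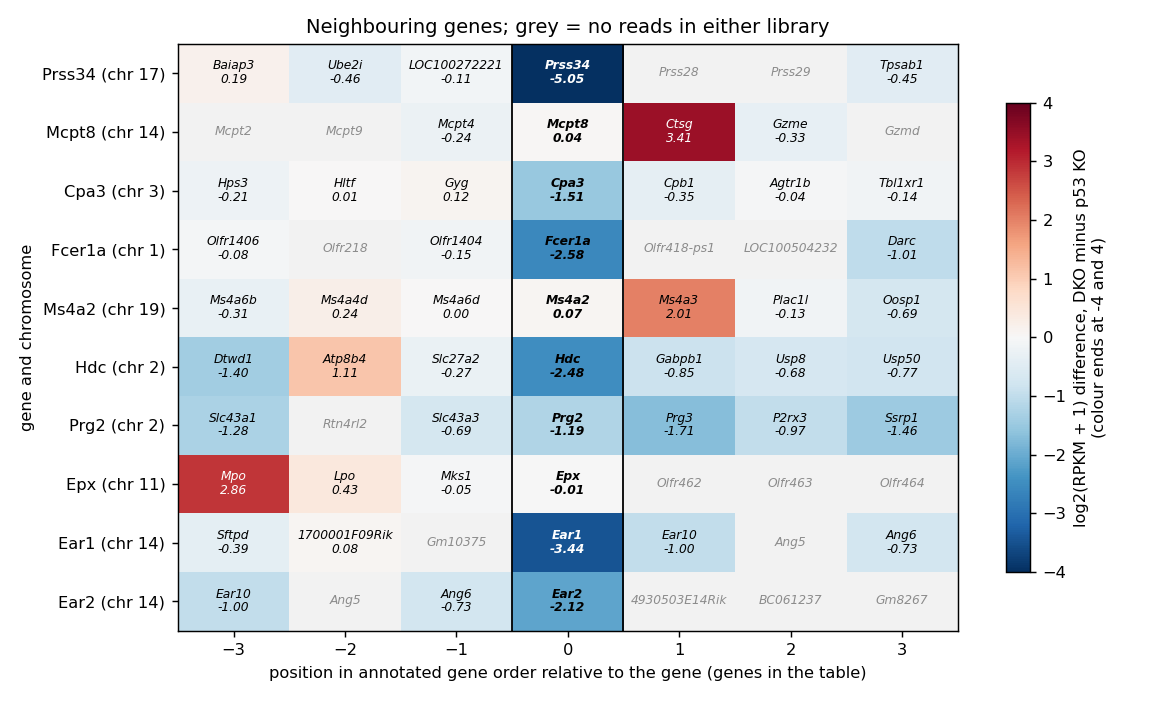
The 3 genes on each side of each of the 10 genes in annotated order, coloured by log2(RPKM + 1) difference (Utx/p53 DKO minus p53 KO, 1 library each; numbers printed, grey for genes without reads). Ctsg beside Mcpt8 (3.41) and Mpo near Epx (2.86) were higher, and most neighbours of Prg2 and Hdc had values below 0.

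Values also depended on how the libraries were scaled. Over all measured genes, 32.9% of those at least 2-fold different were higher in the DKO library as deposited, 15.5% with equal totals, 43.1% with upper-quartile scaling, 52.4% after centring on the median and 72.5% with the authors' gfold constants. Relative to the deposited RPKM these moved the all-gene median by -0.31, 0.13, 0.24 and 0.52 on the log2 scale. Prss34, Fcer1a, Hdc, Ear1, Ear2 and Cpa3 remained at least 2-fold lower under each of these scalings, Cpa3 just past that limit with the gfold constants. Prg2 did not, at -0.62 with the gfold constants and -0.95 after centring. Mcpt8 changed sign, from -0.31 with equal totals to 0.62 with the gfold constants, and so did Ms4a2. In the authors' deposited table, whose GFOLD value is a fold change shrunk for counting error on a log2 scale, 7 of the 10 genes were below 0, 1 above 0 and 2 at 0. In the authors' deposited table as a whole, the GFOLD value was below 0 for 18.8% of the 22020 genes, above 0 for 31% and at 0 for 50.2%. The 7 in the authors' deposited table were the 7 named as lower here, from Prss34 (-6.33) to Prg2 (-0.4), Mcpt8 was at 0.36, and Ms4a2 and Epx were at 0.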

How the data were processed

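The data are 2 RNA-seq libraries of sorted LSK cells, 1 per genotype label. Per the labels' protocols, oligo-dT selected RNA was made into cDNA with a SMART kit and amplified, which can distort low values. Reads were handled with bcl2fastq 1.8.4 and TopHat2 2.1.0, and the build was mm9, per the submitters' processing notes. The authors deposited RPKM values of 28344 RefSeq transcripts, which come from gfold 1.1.4, per the file headers, with 17088105 and 19926294 reads and normalization constants of 1.30144 and 1. Beside them the authors deposited log2 fold changes and GFOLD values. The q-value column deposited with them (E-FDR) holds 1 throughout. The first RPKM column was taken as the p53 KO library because the header lists WT-LSK first, the name in that library's title. Strandedness is not stated in the sources.

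A symbol was represented by its transcript of highest mean RPKM, with a pseudocount of 1. Whole reads were recovered from RPKM, transcript length and the authors' fold change. There was 1 solution for 95.2% of the 24644 transcripts with reads. Epx had several, and the one nearest to its GENCODE transcript length was used. On 400 simulated transcripts 89.25% had 1 solution, all correct. No test across genes was made, since 2 libraries cannot stand for genotypes.

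The 10 genes and the 14 other lists (195 entries) were chosen with earlier results of these data known, and 2 entries are not analysed here. Named were the 10 genes, Kdm6a, Trp53, up to 6 genes per list with the largest absolute difference, 3 neighbours on each side and the closest coding sequences among the list genes and neighbours. The family sum with Ear11 was added after values were seen. Kit and Ly6a as gate genes, genes within 2-fold and genes under the filter were named after their values were seen. Relatedness was taken from GENCODE coding sequences, aligned with Biopython 1.88, in place of the proteins first planned. Gene order came from RefSeq on GRCm38.p6, which differs from mm9, so no coordinates of it are given beyond the promoters.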

Additional observations from a re-analysis of the deposited data

How the results depend on the processing

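Alternatives were pseudocounts of 0.1 and 5, other scalings, other transcripts per gene, no filter or a mean of at least 5 RPKM, and 3-fold or 1.5-fold rules. The count of lower genes among the 10 was 7 as reported and between 5 and 7 otherwise, with 0 higher in each setting. The median of the 10 genes was -1.81 as reported, -2.35 with a pseudocount of 0.1, -1.05 with a pseudocount of 5 and -1.42 with the authors' gfold constants. Without Ear1 and Ear2, an alternative chosen after seeing the data, it was -1.35 and 5 of 8 genes were lower. Prss34, Fcer1a, Hdc, Ear1 and Cpa3 were at least 2-fold lower in the 8 alternatives that change a gene's value, and Ear2 was at -1 (just within 2-fold) with a pseudocount of 5. With the filter at 5 RPKM, the median of the other granule genes went from -1.53 (measured genes) to 2.98 and that of the megakaryocyte genes from -1.14 to 0.0776, since fewer genes were left. Without a filter, the median of the surface markers went from 0.94 to -0.26. That of the histamine and lipid mediator enzymes went from 0.99 to -0.28, and that of the cytokine receptors from 0.31 to -0.2. No paired analysis was possible because each genotype has 1 library. Depth limits Epx and Ms4a2 above all, at 3 and at 13 to 17 reads. With 1 library per genotype the spread between mice is unknown.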
